A study of Homo sapiens with 4 samples.

Results

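The genes described here are 41 genes of DNA replication and nucleotide supply, measured by 54 of the 41000 non-control probes of a whole human genome oligonucleotide array on which 30484 gene names are printed. They were taken by name, and all probes that carry 1 of the 41 names were used. Of the 41 genes, 30 had 1 probe, 9 had 2 probes and 2 had 3 probes. The RNA came from Meg-01, an established human megakaryoblastic leukemia cell line. GATA1 5-13 and GATA1 4-14 are clones of Meg-01 that stably carry a lentiviral shRNA against GATA1, the transcription factor that drives megakaryocyte and erythroid genes, and each grew out of 1 colony. GATA1 Neg is a pool of Meg-01 cells that were infected with a lentivirus for a control shRNA with little homology to human genes, so that clones were compared with a pool. The cells infected with the GATA1 shRNA had been selected with puromycin before colonies were taken, and the lines were cultured in medium with penicillin and streptomycin. Each of 4 arrays held RNA of 1 clone and RNA of GATA1 Neg in opposite colours, and the 2 arrays of a clone (replicates 1 and 2) carried the knockdown RNA in red and in green, respectively. All values are log2 ratios of the clone over GATA1 Neg, so that negative values mean less RNA in the clone, and n = 2 clones. Precision is limited by the small number of arrays. Fewer cycling cells and less RNA per cell cannot be told apart in bulk RNA.

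Before S phase, CDC6 and CDT1 load the ring of MCM2 to MCM7 onto origins, and geminin (GMNN) blocks a further round of loading. The kinase CDC7 with its activator DBF4, the cyclins E and the factors MCM10, CDC45 and TOPBP1 then turn the loaded rings into active forks. There, primase and the polymerases delta and epsilon copy the strands, the RFC loader places the PCNA clamp, and FEN1 and LIG1 finish the lagging strand. Ribonucleotide reductase (RRM1 and RRM2), thymidylate synthase (TYMS) and thymidine kinase (TK1) supply the nucleotides, and the CHAF1 proteins and ASF1B bring histones to the new DNA. Many of these genes are textbook targets of the E2F factors, and their RNA is high in dividing cells.

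Most probes of the genes gave a signal on every array, but the ratios of the 2 arrays correlated less in GATA1 4-14. Over the 54 probes, the 2 arrays of a clone correlated with 0.869 in GATA1 5-13 and with 0.139 in GATA1 4-14. Over all 40974 probes measured on every array, the correlations were 0.806 and 0.641. A correlation falls where values spread little, so that it does not measure the gap between the arrays. The SD over the 41 genes was 0.24 in GATA1 5-13 and 0.089 in GATA1 4-14. Of the 54 probes, 52 were well above background in both RNAs on all 4 arrays, and a probe for RFC1 and a probe for POLE were above it on none. Over the whole array, 61.6% to 66.4% of the spots were above background, depending on array and colour, and 0 spots were saturated. All 10 erythroid marker genes on the array and 7 of the 12 megakaryocyte marker genes were above background on all 4 arrays, as were 0 of 7 granulocyte and monocyte markers and 2 of 6 lymphocyte markers. GATA1 itself had log2 ratios of -0.21 and -0.34 in GATA1 5-13 and of -0.43 and -0.58 in GATA1 4-14, with an adjusted p of 0.61 (limma, Benjamini-Hochberg over 40974 probes).

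As a group, the replication genes stayed close to the level of GATA1 Neg. The median over the 41 log2 ratios came to -0.048 for GATA1 5-13 and to 0.0094 for GATA1 4-14. Over all 17299 genes above background it came to -0.0091 and 0.0013. The spread across the 41 genes was wider in GATA1 5-13, with an SD of 0.24 and a range from -0.88 to 0.43, than in GATA1 4-14, with an SD of 0.089 and a range from -0.34 to 0.21. All genes above background also varied more in GATA1 5-13, with an SD of 0.33 against 0.22. In GATA1 4-14, 40 of the 41 genes lay within 0.3 of GATA1 Neg on the log2 scale, and 32 did so in GATA1 5-13. Most genes above background lay as close, 15926 of 17299 in GATA1 4-14 and 13624 in GATA1 5-13.

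**Figure D1:**
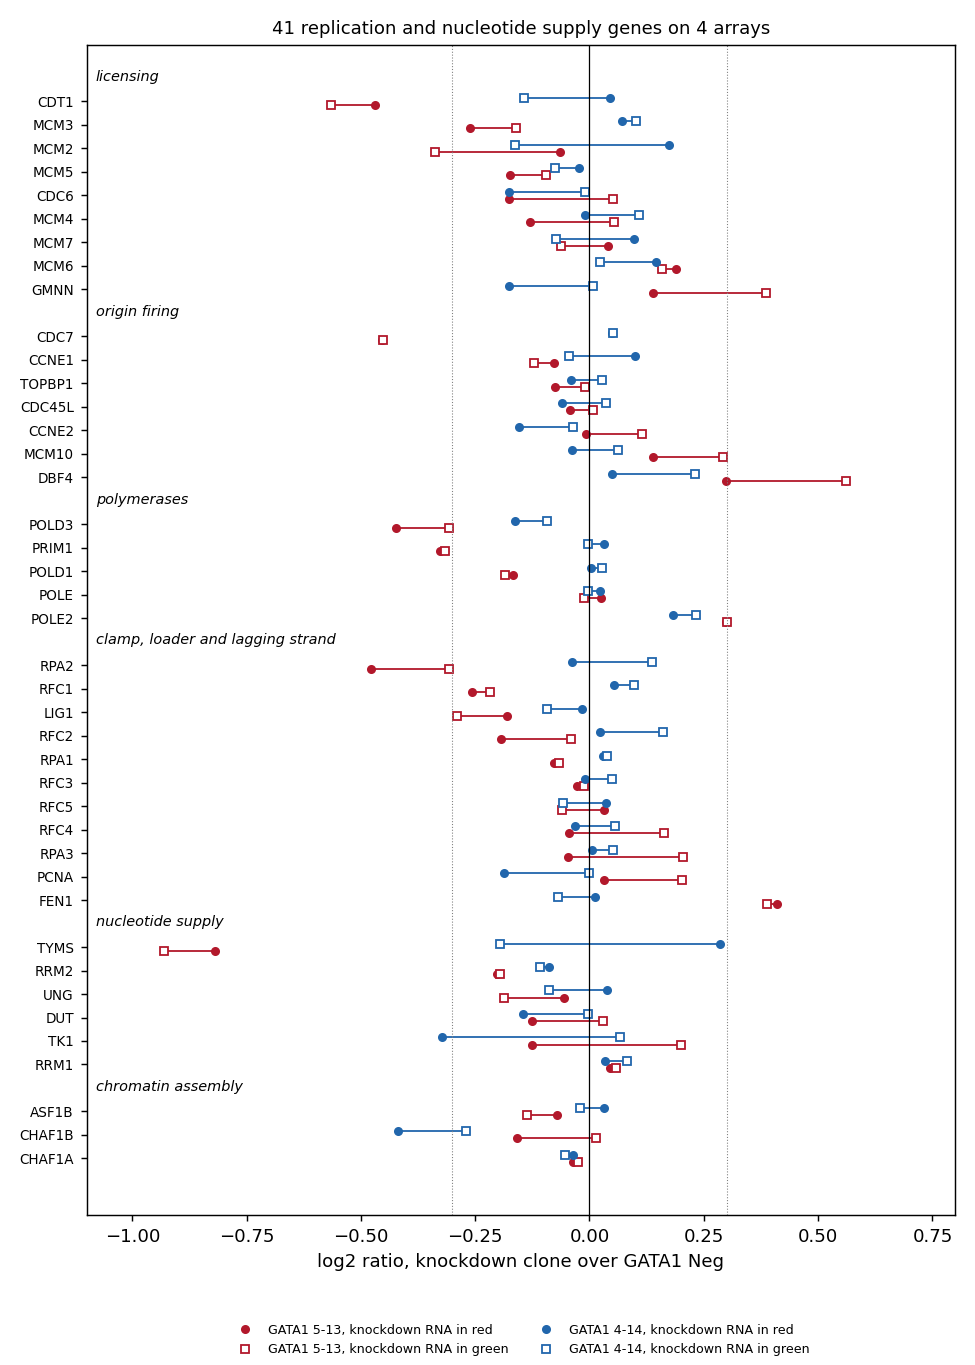
The log2 ratio of each of the 41 genes (rows, by role) over GATA1 Neg on each of the 4 arrays, with GATA1 5-13 in red and GATA1 4-14 in blue, circles for knockdown RNA in the red channel and squares for the green one; lines join the 2 arrays of a clone, and dotted lines stand at -0.3 and 0.3. In GATA1 4-14 the mean of both arrays lies within 0.3 of 0 for every gene but CHAF1B, though 1 array of TK1 lies at -0.32, while TYMS, CDT1, CDC7, RPA2, POLD3 and PRIM1 lie to the left and DBF4, FEN1 and POLE2 to the right in GATA1 5-13.

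With the 2 clones as replicates, 0 of the 54 probes passed an adjusted p of 0.05 in limma, where 0% of all probes passed. The lowest adjusted p among them was 0.62. At an unadjusted p of at most 0.005, 0 probes of the group were lower (0.574% of all probes) and 0 were higher (0.327% of all probes). At an unadjusted p under 0.05, 1 probe was lower, for POLD3 (4.04% of all probes), and 1 was higher, for POLE2 (3.38% of all probes). The 95% confidence interval of a probe's mean reached from 0.17 to 0.84 to either side of it, with a median of 0.23, among the 52 probes above background. Changes smaller than this could not be told from 0 even before adjustment. The intervals were not adjusted for the number of probes, so that larger changes could be missed too. That of POLE2 excluded 0, while its adjusted p in limma was 0.62. Taking the 4 arrays as 4 values, which counts the 2 arrays of a clone as separate samples, 1 probe passed the adjusted threshold, that of POLE2, and 3.03% of all probes did. With the dye orientation as a block the count was 0 again, and 0.657% of all probes passed.

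Counted by direction, 5 of the 41 genes were lower on all 4 arrays (MCM5, POLD3, LIG1, RRM2 and CHAF1A), as were 13.4% of all genes on the array. Another 4 were higher on all 4 arrays (MCM6, DBF4, POLE2 and RRM1), as were 13.2% of all genes. The shares of the 41 genes, 12.2% and 9.76%, are near or below those of the array as a whole. Of the 17299 genes above background, 2971 were lower and 2874 were higher on all 4 arrays. In GATA1 5-13, 21 genes were lower on both arrays (33.3% of all genes) and 8 were higher on both (33% of all genes). In GATA1 4-14, 10 were lower on both arrays (28.8% of all genes) and 11 were higher on both (28.9% of all genes). Lower genes thus outnumbered higher ones in GATA1 5-13 and not in GATA1 4-14, a difference between the clones that was not tested. Of the 21 lower genes in GATA1 5-13, 15 lay within 0.3 of GATA1 Neg.

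Past 0.3 on the log2 scale, the genes of GATA1 5-13 that were lower on both arrays were TYMS, CDT1, CDC7, RPA2, POLD3 and PRIM1. These are 6 of 41 genes, where 7.59% of all genes and 11.8% of the genes above background went as far. The count was 7 when genes were averaged over the probes above background alone, with RFC1 as the added gene, and 12.4% of all genes above background then went as far. DBF4, FEN1 and POLE2 were higher by as much on both arrays, 3 of 41, with 6.12% of all genes and 9.21% of those above background. In GATA1 4-14, CHAF1B was the only gene that was lower by over 0.3, with 2.99% of all genes and 4.32% of those above background, and 0 genes were higher by as much, with 2.73% and 3.58%. Just inside the limit in GATA1 5-13 were GMNN, with a mean of 0.26, and LIG1, with a mean of -0.23, beside RFC1, whose mean was -0.24 over its 3 probes and -0.37 over the 2 above background.

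Among the licensing genes, CDT1, the loading factor that is destroyed once S phase begins, was lowest by the mean over both clones. Its log2 ratios were -0.47 and -0.57 in GATA1 5-13 and 0.045 and -0.14 in GATA1 4-14, so that the clones did not overlap. Its level was 0.70-fold that of GATA1 Neg in GATA1 5-13 and 0.97-fold in GATA1 4-14. Its 2 probes gave means over both clones of -0.32 and -0.25, with adjusted p of 0.72 for each. GMNN, whose protein binds and holds back CDT1, lay on the other side, with 0.14 and 0.39 in GATA1 5-13 and -0.18 and 0.0067 in GATA1 4-14. CDC6, the partner of CDT1 in loading, had values from -0.18 to 0.052 over the 4 arrays. The 6 genes of the MCM ring lay in a narrow band, with means from -0.21 (MCM3) to 0.17 (MCM6) in GATA1 5-13 and from -0.050 (MCM5) to 0.087 (MCM3) in GATA1 4-14. MCM6 was higher on all 4 arrays, with 0.19, 0.16, 0.15 and 0.023, and MCM5 was lower on all 4, with -0.17, -0.095, -0.024 and -0.076. MCM3 had -0.26 and -0.16 in GATA1 5-13 and 0.072 and 0.10 in GATA1 4-14. MCM2, MCM4 and MCM7 had both signs within at least 1 clone, and MCM2 changed its sign with the dye in GATA1 4-14, from 0.17 with the knockdown RNA in red to -0.16 with it in green.

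The subunits of the kinase that fires origins differed in direction in GATA1 5-13. CDC7, the catalytic subunit, had -0.45 and -0.45 in GATA1 5-13 and 0.048 and 0.052 in GATA1 4-14. DBF4, its activating subunit, had 0.30 and 0.56 in GATA1 5-13 and 0.048 and 0.23 in GATA1 4-14, higher on 4 of 4 arrays. The level of DBF4 was thus 1.35-fold that of GATA1 Neg in GATA1 5-13 and 1.10-fold in GATA1 4-14, with a mean log2 ratio of 0.28 ± 0.21 (SD, n = 2 clones) and adjusted p of 0.68 for each of its 2 probes. MCM10, which helps to activate the helicase, had 0.14 and 0.29 in GATA1 5-13 and -0.038 and 0.063 in GATA1 4-14. CDC45L and TOPBP1, which take part in the same step, and the cyclin genes CCNE1 and CCNE2 stayed between -0.16 and 0.12 on all 4 arrays.

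In the polymerases, POLE2, the second subunit of polymerase epsilon, was higher by a like amount on all 4 arrays and had the lowest p of the 41 genes. Its log2 ratios were 0.30 and 0.30 in GATA1 5-13 and 0.18 and 0.23 in GATA1 4-14, with no overlap between the clones. The mean was 0.25 ± 0.065 (SD, n = 2 clones) with a 95% confidence interval of 0.067 to 0.44, an unadjusted p of 0.023 in limma and an adjusted p of 0.62. The adjusted p was 0.046 in limma with the 4 arrays as 4 values and 0.098 with the dye orientation as a block. POLE, the catalytic subunit of the same enzyme, lay near GATA1 Neg over its 3 probes, with 0.025 and -0.013 in GATA1 5-13 and 0.022 and -0.0033 in GATA1 4-14. The 2 POLE probes above background differed in sign, with means of 0.041 and -0.035, and the third was not above background. These 2 probes were dim, with a log2 brightness of 8.1 and 7.5 for the knockdown RNA in red in GATA1 5-13. That of POLE2 was 11.3. The offset used in processing makes the ratios of dim probes smaller, so that the sizes of POLE and POLE2 cannot be compared.

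POLD3, an accessory subunit of polymerase delta, was lower on 4 of 4 arrays, with -0.42 and -0.31 in GATA1 5-13 and -0.16 and -0.093 in GATA1 4-14. Its 2 probes had the same mean of -0.25, with unadjusted p of 0.087 and 0.044 and adjusted p of 0.69 and 0.67 in limma. POLD1, the catalytic subunit, had -0.17 and -0.18 in GATA1 5-13 and 0.0043 and 0.026 in GATA1 4-14. PRIM1, the small primase subunit that makes the first RNA bases, had -0.33 and -0.32 in GATA1 5-13 and 0.033 and -0.0034 in GATA1 4-14. Over these 5 genes, the values of 1 clone were close to each other and the 2 clones differed by more than the 2 arrays of either for all but POLE.

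At the clamp and on the lagging strand, FEN1, the nuclease that trims flaps from Okazaki fragments, was highest by the mean over both clones. It had 0.41 and 0.39 in GATA1 5-13 and 0.012 and -0.070 in GATA1 4-14, a level 1.32-fold that of GATA1 Neg in the former and 0.98-fold in the latter. LIG1, the ligase that acts after FEN1, lay on the lower side on 4 of 4 arrays, with -0.18 and -0.29 in GATA1 5-13 and -0.017 and -0.093 in GATA1 4-14. RPA2, the middle subunit of the factor that coats single-stranded DNA, had -0.48 and -0.31 in GATA1 5-13 and -0.037 and 0.14 in GATA1 4-14. The other RPA subunits, RPA1 and RPA3, stayed between -0.078 and 0.20 on all arrays. RFC1, the large subunit of the clamp loader, had -0.38 and -0.35 in GATA1 5-13 and 0.075 and 0.13 in GATA1 4-14 over its 2 probes above background. With the third probe, which was above background on no array, these means were -0.26, -0.22, 0.054 and 0.097. RFC2, RFC4 and RFC5 had means over both clones from -0.013 to 0.035. RFC3 had -0.028 and -0.012 in GATA1 5-13 and -0.0096 and 0.049 in GATA1 4-14, and its 2 probes differed in sign, with means of 0.054 and -0.054. The clamp itself, PCNA, had 0.031 and 0.20 in GATA1 5-13 and -0.19 and -0.0017 in GATA1 4-14, so that in each clone the green array was higher by 0.17 and 0.18.

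TYMS, the enzyme that makes thymidylate and the target of fluoropyrimidine drugs, had the lowest values of all 41 genes in GATA1 5-13. It also had the lowest mean over both clones. Its log2 ratios were -0.82 and -0.93 in GATA1 5-13, which left 54.5% of the level of GATA1 Neg, and 0.29 and -0.20 in GATA1 4-14. The GATA1 4-14 arrays disagreed in sign by 0.48, the widest gap between the arrays of a clone among the 41 genes. The mean over both clones was -0.41 ± 0.65 (SD, n = 2 clones), with an adjusted p of 0.76 in limma. RRM2, the regulated subunit of ribonucleotide reductase, was lower on 4 of 4 arrays by less, with -0.20 and -0.20 in GATA1 5-13 and -0.089 and -0.11 in GATA1 4-14. Its 2 probes differed in size, with means of -0.089 and -0.31 in GATA1 5-13 and of -0.078 and -0.12 in GATA1 4-14. RRM1, its partner subunit, was higher on 4 of 4 arrays, with values from 0.035 to 0.083. TK1, which salvages thymidine, had both signs in both clones, from -0.32 to 0.20, and in each clone the array with the knockdown RNA in red was the lower. DUT and UNG, which keep uracil out of DNA, stayed between -0.19 and 0.037.

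Of the chromatin assembly genes, CHAF1B, the middle subunit of the histone chaperone CAF-1, was the gene of the group that was lowest in GATA1 4-14. It had -0.42 and -0.27 in GATA1 4-14 and -0.16 and 0.015 in GATA1 5-13, with a mean of -0.21 ± 0.19 (SD, n = 2 clones) and an adjusted p of 0.71. CHAF1A, the large subunit, had values from -0.054 to -0.025 on the 4 arrays, and ASF1B, which hands histones to CAF-1, had means of -0.10 in GATA1 5-13 and 0.0052 in GATA1 4-14.

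Probes for DBF4, PRIM1, PCNA and CHAF1B were printed 10 times on each array, which gives the error of the spots. The SD over the spots of 1 array was between 0.0076 and 0.067. For DBF4, the spots ran from 0.25 to 0.38 and from 0.52 to 0.63 on the 2 arrays of GATA1 5-13, and from -0.046 to 0.096 and from 0.22 to 0.28 on those of GATA1 4-14. The spots of different dye orientations of DBF4 did not overlap within either clone, so that the gap between the arrays of a clone was larger than the spread of the spots. For PRIM1, the spots of GATA1 5-13 lay between -0.39 and -0.26 and those of GATA1 4-14 between -0.064 and 0.061, which is a gap between the clones and not between the dyes.

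**Figure D2:**
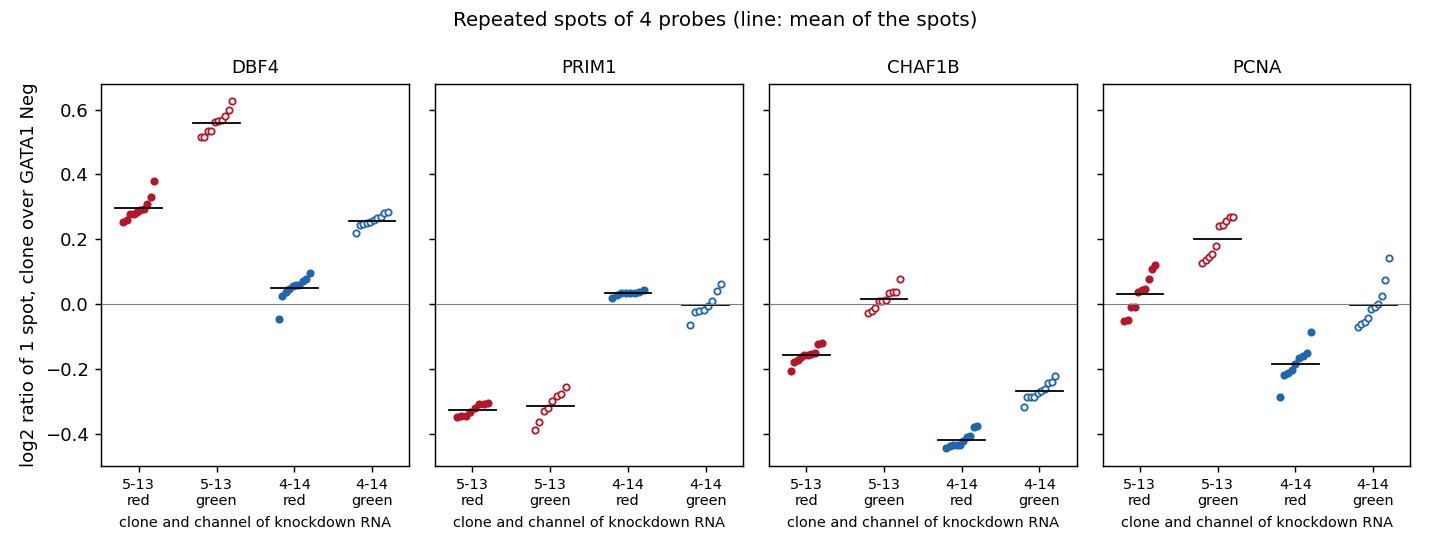
The log2 ratio over GATA1 Neg of each spot (points) of the 4 probes printed 10 times, by clone and colour of the knockdown RNA, with the mean of the spots as a line; outlier spots are left out. PRIM1 separates the clones at either colour, while DBF4, CHAF1B and PCNA also differ between the colours within a clone, by 0.15 to 0.26.

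The clones differed from each other by at least 0.3 on the log2 scale for 8 of the 41 genes, and 21.9% of all genes above background differed by as much. CDT1, CDC7, PRIM1, RFC1, RPA2 and TYMS were lower in GATA1 5-13 than in GATA1 4-14, and GMNN and FEN1 were higher. GATA1 Neg cancels in this difference, which was -1.11 with the knockdown RNA in red and -0.74 with it in green for TYMS, the widest of the group. For CDC7 it was -0.50 and -0.50, for RPA2 it was -0.44 and -0.44, and for FEN1 it was 0.40 and 0.46. In these genes the dye orientation moved the difference little, TYMS excepted. The 2 clones had opposite signs, each the same on both of its arrays, for 7 genes (MCM3, CDC7, POLD1, PCNA, RFC1, RFC2 and RPA1), where 16.1% of all genes did. With 1 line for each clone, these differences could not be tested.

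**Figure D3:**
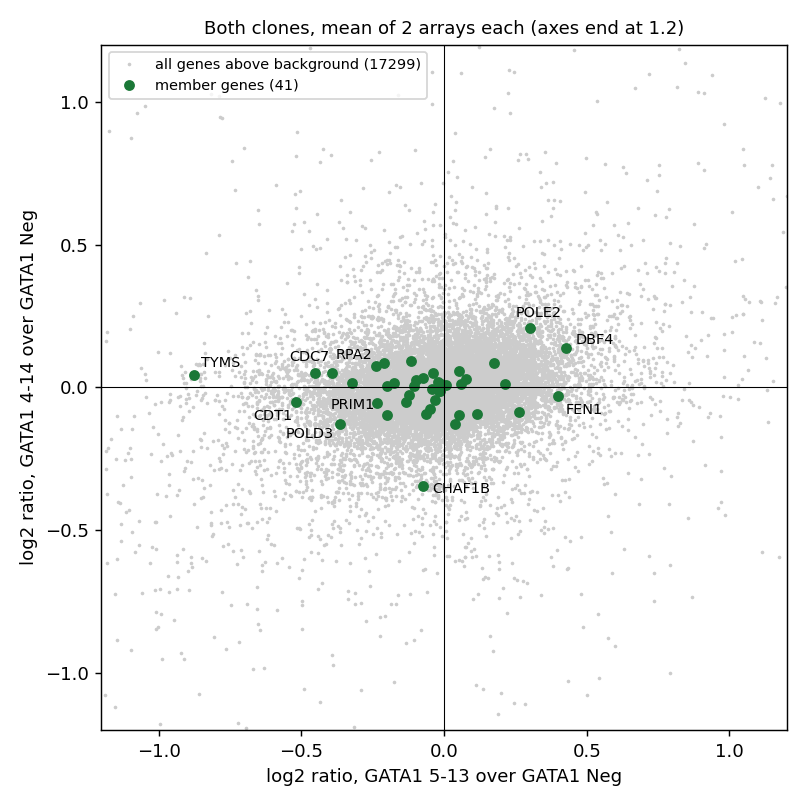
The mean log2 ratio of GATA1 5-13 (x axis) and GATA1 4-14 (y axis) over the same GATA1 Neg RNA, for the 41 replication genes (green) over the 17299 genes above background (grey); genes beyond 1.2 on either axis are not drawn. The 41 genes spread along the x axis, from TYMS at -0.88 to DBF4 at 0.43, and little along the y axis, where CHAF1B at -0.34 stands apart.

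Some of the lowest genes lay in stretches of chromosome where other genes were low as well. For each gene, the median log2 ratio was taken over the other probes within 5 Mb on hg18 that were above background. The neighbours of TYMS, at the end of the short arm of chromosome 18 (probe at chr18:663276-663335), had a median of -0.45 in GATA1 5-13, and 30 of 33 of these probes were lower on both arrays. For RPA2 (chr1:28090892-28090951), the median of the neighbours was -0.45 and 176 of 196 were lower, and for CDC7 (chr1:91763635-91763694), it was -0.40 and 62 of 81 were lower. In GATA1 4-14 the neighbours of these 3 genes had medians of -0.0064, -0.0098 and 0.030. A median of -0.3 or lower was found around 3.89% of the 23570 probes above background that have at least 10 such neighbours in GATA1 5-13, and around 0% in GATA1 4-14.

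Set against their neighbours, RPA2 and CDC7 were not low. In GATA1 5-13, RPA2 lay 0.054 above the median of its neighbours and CDC7 lay at -0.053 relative to it, while TYMS lay at -0.43 relative to it. These are 3 of the 6 genes that were lower by over 0.3 in GATA1 5-13 (7 with RFC1 over its probes above background), and no other gene of the 41 had neighbours with a median of -0.3 or lower. CDT1, POLD3 and PRIM1 had neighbours near 0, with medians of 0.024, -0.0046 and -0.025, as did DBF4, FEN1 and POLE2 on the higher side, with 0.050, -0.015 and -0.013. CHAF1B (chr21:36710828-36710887) had neighbours with a median of -0.21 in GATA1 5-13 and of -0.25 in GATA1 4-14, where 88 of 109 probes were lower on both arrays, and it lay at -0.092 relative to them in GATA1 4-14. Leaving out CDC7, RPA2, TYMS and CHAF1B, the medians of the other 37 genes were -0.038 in GATA1 5-13 and 0.0052 in GATA1 4-14. Then 3 genes were lower (not counting RFC1) and 3 were higher by over 0.3 in GATA1 5-13, and 0 were lower by as much in GATA1 4-14. The number of copies of these regions in the clones was not measured by these arrays, and its part in the result was not tested.

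**Figure D4:**
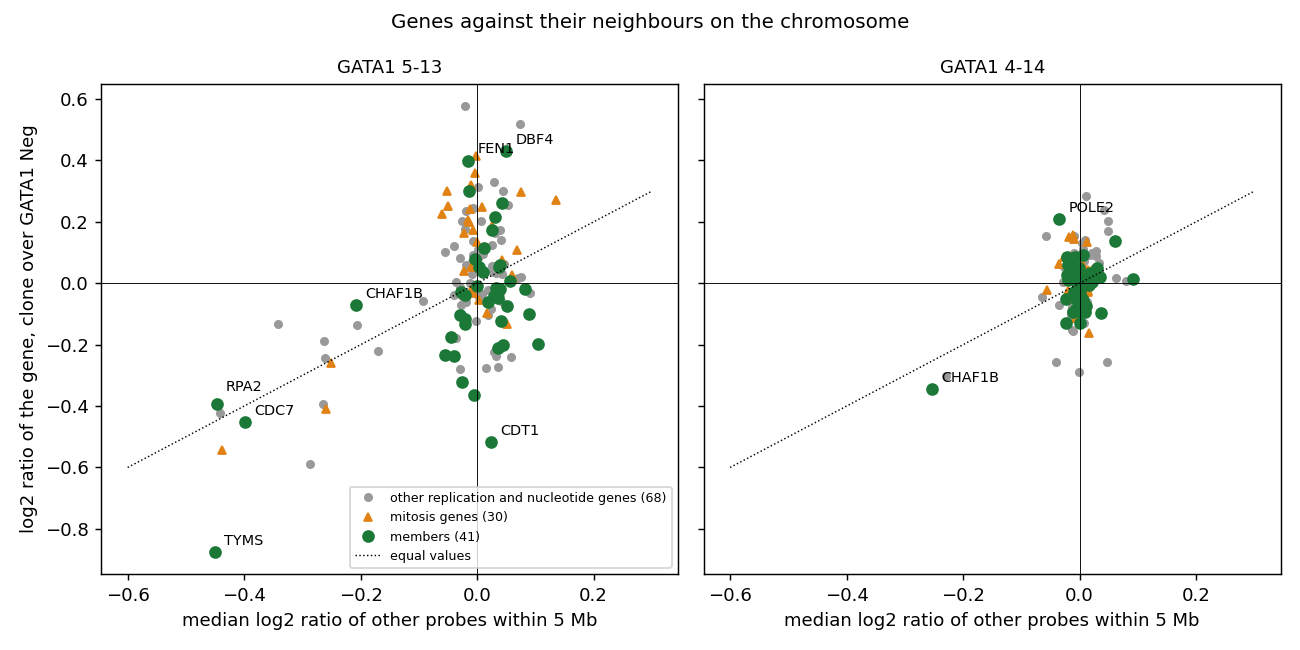
The log2 ratio of each gene (y axis) against the median log2 ratio of the other probes above background within 5 Mb on hg18 (x axis), in GATA1 5-13 (left) and GATA1 4-14 (right), for the 41 replication genes (green), the other replication and nucleotide genes (grey) and the mitosis genes (orange); on the dotted line a gene equals its neighbours. RPA2 and CDC7 lie on the line in GATA1 5-13 and TYMS below it, CDT1 and FEN1 have neighbours near 0, and CHAF1B lies on the left in both clones.

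Letters of E2F sites were found in a larger share of the starts of these genes than of all genes. Promoters of 300 bases (250 before and 50 after the start, RefSeq, GRCh38.p14) were at hand for 35 of the 41 genes. The 8-base words TTTGGCGC, TTTGCCGC, TTTCGCGC and TTTCCCGC, searched on both strands, were found in 13 of the 35 promoters, 37.1%, and in 3.31% of all 35116 promoters of that table. Among the 35 genes, 10 had several promoters there, of which only the first was searched. The 35116 count every promoter of a gene, so that the 2 shares are not counted alike. The word CCAAT, on both strands, was found in 17 of 35, 48.6%, against 34.6% of all. The GATA words AGATAA and TGATAA were found in 1 of 35, 2.86%, that of RFC3, against 16.3% of all. Words that overlap on opposite strands were counted each. The promoters below are those of the lowest gene of the licensing group and of all genes, of POLE2, of the gene with the most E2F words and of the gene with a GATA word; they are written 5′ to 3′ on the strand of the gene, with the matched words in capitals.
CDT1 (chr16:88803539-88803838, plus strand): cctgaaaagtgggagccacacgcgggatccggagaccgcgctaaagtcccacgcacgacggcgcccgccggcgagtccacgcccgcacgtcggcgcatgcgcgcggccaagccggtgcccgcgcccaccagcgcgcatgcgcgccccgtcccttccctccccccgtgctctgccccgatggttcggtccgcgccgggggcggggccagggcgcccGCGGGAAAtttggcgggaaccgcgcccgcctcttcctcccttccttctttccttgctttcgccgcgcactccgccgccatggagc
TYMS (chr18:657403-657702, plus strand): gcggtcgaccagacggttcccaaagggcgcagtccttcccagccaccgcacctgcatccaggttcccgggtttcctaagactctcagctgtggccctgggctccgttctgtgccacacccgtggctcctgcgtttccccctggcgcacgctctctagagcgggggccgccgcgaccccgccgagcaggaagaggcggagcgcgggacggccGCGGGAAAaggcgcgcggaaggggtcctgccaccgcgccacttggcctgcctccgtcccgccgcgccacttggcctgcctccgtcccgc
POLE2 (chr14:49688165-49688464, minus strand): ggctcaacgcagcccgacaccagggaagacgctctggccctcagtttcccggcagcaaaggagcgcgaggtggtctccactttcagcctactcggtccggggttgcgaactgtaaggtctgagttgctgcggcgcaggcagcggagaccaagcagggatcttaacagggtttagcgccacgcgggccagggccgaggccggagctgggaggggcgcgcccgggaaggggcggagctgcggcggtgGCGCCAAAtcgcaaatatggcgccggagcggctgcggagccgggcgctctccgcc
MCM6 (chr2:135876394-135876693, minus strand): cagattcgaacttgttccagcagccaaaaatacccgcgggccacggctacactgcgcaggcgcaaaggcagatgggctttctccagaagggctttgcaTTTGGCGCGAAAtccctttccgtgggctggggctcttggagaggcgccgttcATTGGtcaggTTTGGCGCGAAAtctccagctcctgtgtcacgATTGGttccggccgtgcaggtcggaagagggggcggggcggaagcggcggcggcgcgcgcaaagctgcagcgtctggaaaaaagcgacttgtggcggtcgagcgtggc
RFC3 (chr13:33817899-33818198, plus strand): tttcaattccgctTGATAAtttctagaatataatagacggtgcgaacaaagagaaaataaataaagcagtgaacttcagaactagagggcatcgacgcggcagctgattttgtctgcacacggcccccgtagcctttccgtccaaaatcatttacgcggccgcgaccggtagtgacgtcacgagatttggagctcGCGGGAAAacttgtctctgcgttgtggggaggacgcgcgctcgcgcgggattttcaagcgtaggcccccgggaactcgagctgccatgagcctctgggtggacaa
In CDT1 and TYMS the capitals are 1 E2F word, TTTCCCGC on the other strand, whose left end lies 35 and 39 bases before the start, and in POLE2 they are TTTGGCGC on the other strand. In MCM6 they are 2 pairs of overlapping E2F words, each TTTGGCGC with TTTCGCGC on the other strand, and 2 CCAAT words on the other strand, and in RFC3 they are TGATAA and 1 E2F word.

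Genes with and without an E2F word had similar values. The split is by the searched letters alone. The promoters of MCM10 and CDC45L, counted as without, hold TTTGGCGG, which differs from a searched word in its last letter only. The split thus does not separate genes with an E2F site from genes without one. In GATA1 5-13 the median of the 13 genes with a word was -0.042, with a range from -0.88 to 0.30, and that of the 22 without was -0.060, with a range from -0.45 to 0.43. In GATA1 4-14 the medians were 0.0094 and 0.0083. Both the lowest gene, TYMS, and 1 of the highest, POLE2, had a word, while CDC7, DBF4 and FEN1 had none of the words searched. A match of letters is a description of the sequence and was not tested for binding.

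Other genes of the same pathways that are not among the 41 were close to GATA1 Neg too. Of 74 names in this list, 69 were on the array and above background, with medians of 0.029 in GATA1 5-13 and 0.014 in GATA1 4-14. Among these 69 genes, 9 were lower and 13 higher on all 4 arrays, with 13.4% and 13.2% of all genes. Of the 17299 genes above background, 2971 and 2874 were. At an unadjusted p under 0.05, 5 of their 106 probes were lower and 2 were higher, with 4.04% and 3.38% of all probes, so that these counts are near the background. The lowest were ORC1L, a subunit of the origin recognition complex, with -0.59 and -0.079 in the 2 clones, DCK, which salvages deoxycytidine and activates cytarabine, with -0.27 and -0.29, and E2F2, with -0.42 and -0.11. DCK was lower on 4 of 4 arrays (limma, unadjusted p of 0.012, adjusted p of 0.58). The highest were SKP2, which marks CDT1 and others for degradation, with 0.58 and 0.17, E2F3, with 0.33 and 0.15, and ORC3L, with 0.12 and 0.28. E2F2 and ORC1L lie on the short arm of chromosome 1, and their neighbours had medians of -0.44 and -0.29 in GATA1 5-13; E2F2 and RPA2 lie within 5 Mb of each other and share neighbours.

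The genes of mitosis, set beside the 41 genes as another large group of cell cycle genes, leaned the other way from them in GATA1 5-13. Their 30 genes had medians of 0.15 in GATA1 5-13 and 0.0099 in GATA1 4-14, 19 were higher and 6 lower on both arrays of GATA1 5-13 (33% and 33.3% of all genes), and 8 were higher on all 4 arrays (13.2% of all genes). Of the 41 replication genes, 8 were higher and 21 lower on both arrays of GATA1 5-13. The 69 other replication and nucleotide genes did not lean as the 41 did, with 29 higher and 22 lower on both. CCNB1, the cyclin of mitotic entry, had 0.32 and 0.13 in the 2 clones, and the spindle checkpoint genes BUB1 and MAD2L1 had 0.41 and 0.034, and 0.36 and 0.062. The lowest were KNTC2, a kinetochore gene on chromosome 18 that shares neighbours with TYMS, with -0.54 and 0.036, KIF2C with -0.41 and 0.044 and CDC20 with -0.26 and -0.028, and the neighbours of these 3 had medians of -0.44, -0.26 and -0.25 in GATA1 5-13. At an unadjusted p under 0.05 in limma, 0 of the 37 mitosis probes were lower and 3 were higher, with 4.04% and 3.38% of all probes. After adjustment, 0 passed. The differences between these groups of genes were not tested.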

How the data were processed

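RNA of 2 Meg-01 clones with a GATA1 shRNA was hybridized with RNA of GATA1 Neg on 4 two-colour arrays of 1 slide. The text on RNA extraction in the labels names CMK, another megakaryoblastic line, and all other labels name Meg-01, which was used. The authors deposited the scanner output of Feature Extraction 9.5.3.1, with mean spot intensity, median local background intensity and marks for outliers, saturation and background in both channels, not normalized, and probe positions on hg18. The log10 ratios that the authors deposited, background-subtracted and dye-normalized by that program, and the series-wide file of log10 ratios, which equals them within 4.97e-06, were used as alternatives. The program's p-values and processed signals were not used.

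With limma 3.58.1 in R 4.3.3 and its data.table package, version 1.17.8, intensities were corrected with normexp (offset 50) and normalized by loess within arrays. The offset makes the ratios of dim probes smaller. Control and outlier spots (135 to 152 of 43376 per array) were left out, spots of a probe averaged, ratios turned to clone over GATA1 Neg, and the arrays of each clone then averaged. A two-sided limma test compared the mean of 2 clones with 0, and p was adjusted by Benjamini-Hochberg over the 40974 probes measured on every array. The spread of GATA1 Neg itself does not enter this test, and nothing in the sources used here names separate cultures or extracts for the arrays of a clone. Probes of a gene were averaged for values per gene. Both clones share GATA1 Neg, so that their ratios are not independent. All members are named, with values in every array for the 5 lowest and 5 highest by the mean, for members with opposite signs by at least 0.3 and for members whose probes differ in sign, and the 3 lowest and highest of the other lists. Values of each array are also given for further members, chosen after their values were seen. Members and lists were chosen with earlier results of these data known. Values within 5 Mb on the chromosome and values per gene over probes above background alone were added after the data were seen. Protein sequences were not used here. Figures were drawn with matplotlib 3.10.9.

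Replicate numbers pair arrays of the clones by dye. Over all probes, arrays of different clones correlated with 0.387 and 0.409 where the number was the same and with 0.216 and 0.171 where it differed. The alternatives were no background correction, the log10 ratios above, median centring, Aquantile, an intensity trend, outlier spots kept, filters on dim probes, other rules for genes with several probes, 4 arrays as 4 values with and without the replicate block, and each array or clone left out.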

Additional observations from a re-analysis of the deposited data

Results flagged for a closer look

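For 7 of the 41 genes, both arrays of GATA1 5-13 lay on one side of GATA1 Neg and both arrays of GATA1 4-14 on the other. That is 17.1% of them, near the 16.1% of all genes on the array. The difference in log2 ratio, GATA1 5-13 minus GATA1 4-14, was -0.50 for CDC7, -0.31 for RFC1 (-0.47 over its probes above background), -0.30 for MCM3, -0.21 for RFC2, -0.19 for POLD1, -0.11 for RPA1 and 0.21 for PCNA. None of these differences was tested, since each clone is 1 line. CDC7 was level with its neighbours within 5 Mb in both clones, with -0.053 and 0.020 relative to their medians.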

How the results depend on the processing

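Of the 54 probes, 0 passed the adjusted threshold in limma under every alternative but one: with the 4 arrays as 4 values and no replicate block it was 1, that of POLE2. With the dye orientation as the replicate block, which pairs arrays of equal number, it was 0, and that block changed no other call. The median over the 41 genes in GATA1 5-13 was -0.0022 with median centring in place of loess, and -0.075 to -0.025 with 1 array left out. In GATA1 4-14 it was 0.017 with median centring, 0.0038 without background correction and 0.0044 with each probe counted on its own, and -0.0017 to 0.0094 with 1 array left out. The median difference between the clones was -0.0100 with median centring, -0.012 without background correction and -0.068 to -0.029 with 1 array left out. For the other replication and nucleotide genes, the median of the mean over both clones was 0.041 with median centring, against 0.012 with loess. The cause of these moves was not tested.

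The sign of the mean changed for some genes. With median centring, the mean log2 ratio was 0.0023 for CCNE1, 0.019 for CDC45L, 0.022 for RFC2, 0.018 for RFC3, 0.0095 for RFC5, 0.013 for RPA1 and 0.011 for TOPBP1. Without background correction it was 0.010 for RFC3, and with the ratios of Feature Extraction or the series-wide values it was -0.024 for POLE. Without GATA1 5-13 it changed for 16 of the 41 genes, among them TYMS (0.045 in place of -0.41), CDC7 (0.050 in place of -0.20), FEN1 (-0.029 in place of 0.19), RPA2 (0.050 in place of -0.17) and PRIM1 (0.015 in place of -0.15), and also GMNN, MCM2, MCM3, CCNE1, POLD1, PCNA, RFC1, RFC2, RFC3, RPA1 and ASF1B. Without GATA1 4-14 it changed for 4 (MCM4, MCM7, CCNE2 and TK1). For the genes whose sign changed with 1 array left out, the range with 1 array or 1 clone left out was -0.095 to 0.054 for CCNE2, -0.039 to 0.0086 for CDC45L, -0.040 to 0.052 for MCM4, -0.042 to 0.044 for MCM7, -0.094 to 0.12 for PCNA, -0.0016 to 0.017 for POLE, -0.12 to 0.092 for RFC2, -0.020 to 0.020 for RFC3, -0.017 to 0.087 for RFC4, -0.036 to 0.011 for RFC5, -0.010 to 0.12 for RPA3 and -0.14 to 0.052 for TK1. TYMS, CDT1, POLD3, CHAF1B, DBF4, POLE2 and MCM6 had the same sign under all alternatives that keep both clones. They were named for their low or high means, and other genes kept their sign under these alternatives too. Aquantile leaves log ratios as they are. The planned search of protein motifs was not run. With 2 clones, 1 control pool and 1 slide, the effects of GATA1, of clone and of pool cannot be told apart.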
